A study of Mus musculus with 36 samples.

Results

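The 10 genes described here are widely used markers of astrocytes, the glial cells that support neurons: Gfap, Aldh1l1, Aqp4, S100b, Slc1a2, Slc1a3, Apoe, Glul, Gja1 and Sox9. They were chosen by name, as the rows whose gene symbol is one of these 10, among 21754 named genes. All 10 were listed once, and all 10 passed the filter on low counts that left 15204 genes for testing. They were read in 36 RNA sequencing libraries of motor neurons that had been made from mouse embryonic stem cells and kept in medium conditioned by astrocytes.

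In the nervous system, astrocytes take up glutamate released at synapses through the transporters encoded by Slc1a2 and Slc1a3, convert it to glutamine with the enzyme encoded by Glul, exchange ions and small molecules through channels such as those encoded by Gja1 and Aqp4, and release lipid particles that carry the product of Apoe. Many of the same genes are switched on earlier, in the radial glia and progenitors from which astrocytes arise, and several are also read in other cells, so no single one of them defines an astrocyte. Gfap, a filament protein, is the marker most used for mature and reactive astrocytes.

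The 6 groups were mSOD1 medium, wtSOD1 medium and NTg medium, each sampled on day 3 and on day 1, with 6 libraries in every group. mSOD1 medium was conditioned by astrocytes of mice that overexpress SOD1 with the G93A mutation, wtSOD1 medium by astrocytes of mice that overexpress wild-type SOD1, and NTg medium by astrocytes of non-transgenic mice. The neurons themselves were of 1 design in all groups: the HB9 promoter, which is active in motor neurons, drove eGFP, or eGFP with the surface protein CD2, and cells with CD2 were kept after binding to magnetic beads. The stem cells came from Hlxb9-GFP1Tmj mice. The astrocyte cultures were described as GFAP-positive for the most part, with residual microglia removed and no neurons or oligodendrocytes found. All media were filtered before use and supplemented with glucose, antibiotics, GDNF, BDNF and CNTF, so every group, NTg included, received a cytokine of the family that acts on astrocyte precursors. Spinal cords or cortices of newborn pups were the source of the astrocytes, and the labels do not say which tissue served which library. Astrocytes conditioned the medium but were not described as part of the sequenced cultures, and a time zero control named in the study's outline was not analysed here. Replicate numbers 1 to 6 are the experiment numbers of the labels. Nothing in the labels says whether libraries of 1 group came from separate differentiations, so p-values measure the spread between these libraries.

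Library totals ran from 4.39 to 88.9 M reads, and levels are given in CPM, counts scaled to the TMM-adjusted size of each library. The library at 4.39 M, NTg day 1 replicate 6, stood apart from the other 5 of its group: the summed level of 12 microglia genes was 68.8 CPM there, against 13.4 to 15.0 CPM in the other 5, and that of 10 oligodendrocyte genes was 268 CPM, against 84.2 to 87.0 CPM. Several results that rest on it are given with and without it. The library at 88.9 M was wtSOD1 day 1 replicate 4. All 9 motor neuron genes examined passed the filter on low counts, and their summed level was lower on day 3, between 691 and 1358 CPM over 18 libraries, against 1863 to 2326 CPM in the 17 day 1 libraries other than NTg replicate 6.

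Promoter sequence was available for 8 of the 10 genes, and the windows of 5 are shown, 3 of genes that rose between days (a transporter, an enzyme and the filament gene) and those of both genes that fell. Each run is the 250 bases before the RefSeq start of the gene on its own strand, in build GRCm38.p6, written 5′ to 3′. The bases after that start were found early in a GENCODE transcript of Slc1a2, Aldh1l1 and Gfap. They were found in none of Slc1a3 or Glul, so the starts of those genes differ between annotations or were not matched. The Slc1a3, Aldh1l1 and Gfap windows, of genes that rose, lie at chr15:8710808-8711057 on the minus strand, chr6:90550543-90550792 on the plus strand and chr11:102897201-102897450 on the minus strand. The Slc1a2 and Glul windows, of genes that fell, lie at chr2:102706188-102706437 and chr1:153899679-153899928, both on the plus strand. Capitals mark matches to 2 motifs of factors linked to astrocyte formation, the NFI motif TTGGC and the STAT motif TTCNNNGAA, on either strand, so that TTGGC also appears as GCCAA.
Slc1a3: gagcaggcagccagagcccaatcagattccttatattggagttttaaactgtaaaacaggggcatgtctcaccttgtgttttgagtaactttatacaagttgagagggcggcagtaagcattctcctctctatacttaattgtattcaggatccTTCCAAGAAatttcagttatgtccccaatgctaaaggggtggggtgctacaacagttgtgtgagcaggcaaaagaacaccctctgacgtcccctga
Aldh1l1: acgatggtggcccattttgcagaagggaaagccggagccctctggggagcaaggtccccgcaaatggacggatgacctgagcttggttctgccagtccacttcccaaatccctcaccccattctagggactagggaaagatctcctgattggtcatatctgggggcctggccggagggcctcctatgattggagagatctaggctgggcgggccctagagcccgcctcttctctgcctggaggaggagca
Gfap: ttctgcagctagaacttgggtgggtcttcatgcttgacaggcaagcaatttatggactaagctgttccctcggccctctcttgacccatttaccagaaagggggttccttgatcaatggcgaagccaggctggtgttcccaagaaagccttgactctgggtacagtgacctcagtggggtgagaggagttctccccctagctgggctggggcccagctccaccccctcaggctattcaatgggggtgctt
Slc1a2: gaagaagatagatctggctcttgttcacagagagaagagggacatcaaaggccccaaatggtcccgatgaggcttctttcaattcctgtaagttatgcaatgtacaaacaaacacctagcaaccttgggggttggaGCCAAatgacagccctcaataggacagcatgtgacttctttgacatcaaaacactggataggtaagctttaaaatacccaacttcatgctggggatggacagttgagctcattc
Glul: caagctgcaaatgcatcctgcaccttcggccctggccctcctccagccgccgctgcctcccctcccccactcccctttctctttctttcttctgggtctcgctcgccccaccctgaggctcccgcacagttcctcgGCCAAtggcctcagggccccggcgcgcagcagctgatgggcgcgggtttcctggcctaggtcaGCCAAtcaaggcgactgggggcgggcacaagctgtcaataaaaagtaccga
The STAT motif was found in the Slc1a3 window and in none of the other 4, and 7.02% of all 32851 windows of this length hold it. The NFI motif was found once in the Slc1a2 window and 2 times in the Glul window, the genes that fell, and 41.5% of all windows hold it. The windows of Slc1a3, Aldh1l1 and Gfap held no NFI motif within these 250 bases, and neither did that of Gja1, which rose. It was also found in 2 of the 3 windows of Apoe, which rose, and 3 times in that of S100b, which did not pass the test. None of these 5 windows held both motifs, so no matches overlap, and a match is a description of letters only.

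Between day 3 and day 1 the markers did not move as 1 block. In each of the 3 media, 7 of the 10 rose (Gfap, Aldh1l1, Aqp4, Slc1a3, Apoe, Gja1 and Sox9), 2 fell (Slc1a2 and Glul) and S100b did not pass the test, by edgeR's quasi-likelihood test with Benjamini-Hochberg adjustment over all 15204 genes at a threshold of 0.05. Change between days was common among all genes: 28.4% rose and 28% fell in mSOD1 medium, 31.1% rose and 30.7% fell in wtSOD1 medium, and 30.8% rose and 30.8% fell in NTg medium. The share of all genes whose days did not overlap is not given, so overlaps stated below describe single genes only. The median log2 difference of the 10 markers, day 3 minus day 1, was 1.26 in mSOD1, 1.38 in wtSOD1 and 1.28 in NTg medium, where the median over all genes tested was -0.00801, -0.00572 and -0.000203. Without NTg day 1 replicate 6 the median of the markers in NTg medium was 1.54, and again 7 rose and 2 fell there. These are bulk cultures, in which more cells of a type and more RNA per cell cannot be told apart, nor fewer cells and less RNA per cell.

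**Figure D1:**
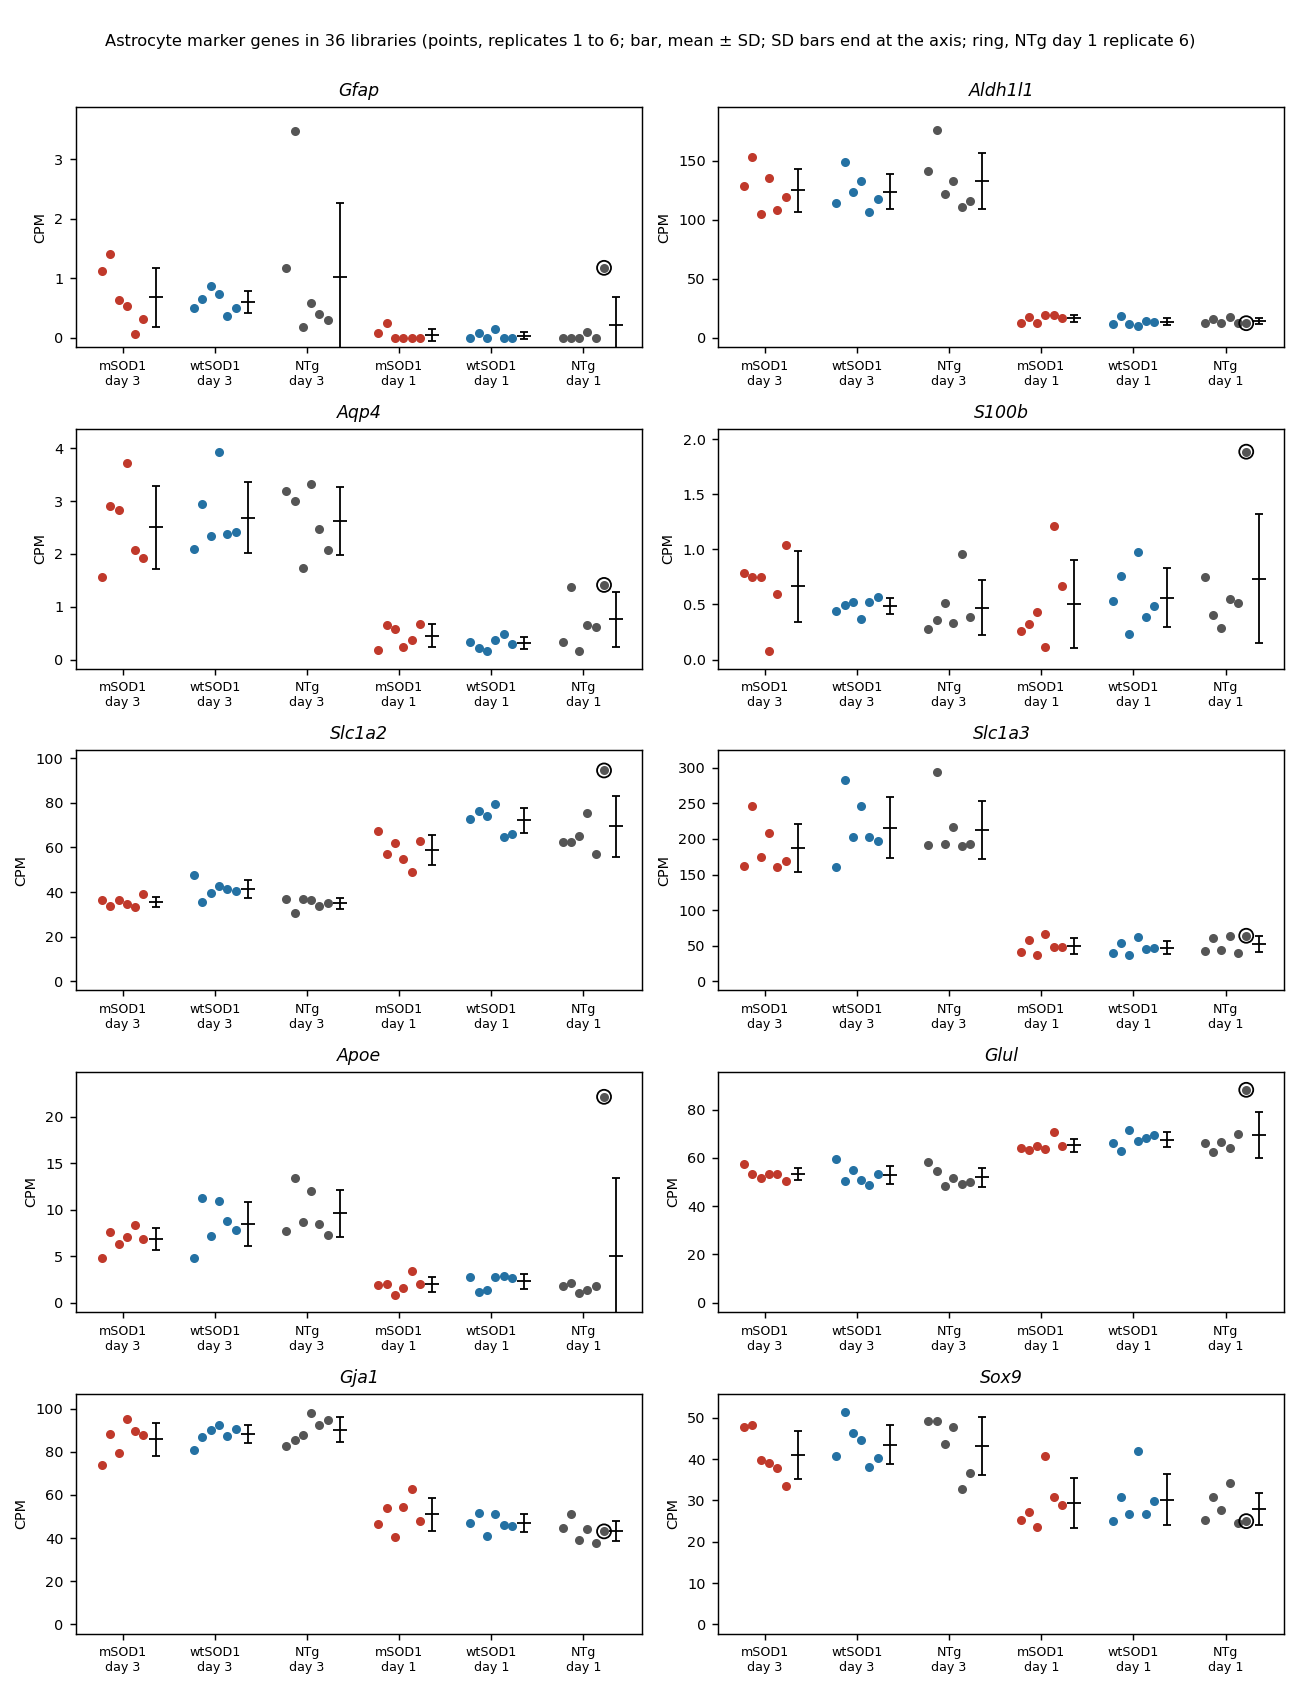
Level of each of the 10 astrocyte marker genes in CPM (vertical axes, from 0) in the 36 libraries, by medium and day. Points are libraries in the order of replicates 1 to 6, bars are mean ± SD of 6, and the ring marks NTg day 1 replicate 6. Aldh1l1 and Slc1a3 of day 3 lie above every day 1 library in all media, Slc1a2 and Glul lie below, and the ringed library is far above the others for Apoe (22.2 CPM), S100b (1.89 CPM) and Gfap (1.18 CPM).

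The pair of glutamate transporters moved in opposite directions. Slc1a3 encodes GLAST, the transporter typical of radial glia and young astrocytes. Its lowest, median and highest level on day 3 was 161, 171 and 246 CPM in mSOD1 medium, 161, 203 and 283 CPM in wtSOD1 medium, and 189.7, 193 and 293 CPM in NTg medium. On day 1 the values were 36.2, 48.1 and 66.7 CPM in mSOD1, 37.2, 45.6 and 62.1 CPM in wtSOD1, and 39.9, 52.5 and 63.9 CPM in NTg medium. Every day 3 library lay above every day 1 library of the same medium, with no overlap. The log2 difference, day 3 minus day 1, was 1.92 ± 0.17 (SE) in mSOD1, 2.18 ± 0.16 in wtSOD1 and 2.04 ± 0.17 in NTg medium, with adjusted p of 1.44e-11, 3.87e-13 and 2.36e-12 in edgeR's test, a rise of 3.78-fold, 4.52-fold and 4.13-fold.

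Slc1a2 encodes GLT-1, the main glutamate transporter of mature astrocytes, which some neurons also make. On day 3 its lowest, median and highest level was 33.4, 35.5 and 39.1 CPM in mSOD1 medium, 35.5, 41.0 and 47.8 CPM in wtSOD1 medium, and 30.7, 35.8 and 36.8 CPM in NTg medium. On day 1 it stood at 49.0, 59.6 and 67.5 CPM in mSOD1, 64.9, 73.3 and 79.4 CPM in wtSOD1, and 57.2, 63.9 and 94.5 CPM in NTg medium. All day 3 libraries were below all day 1 libraries of their medium. The log2 difference, day 3 minus day 1, was -0.73 ± 0.09 in mSOD1 (adjusted p = 3.73e-09), -0.81 ± 0.08 in wtSOD1 (7.63e-11) and -0.96 ± 0.09 in NTg medium (2.09e-12, edgeR). The highest NTg day 1 value belongs to replicate 6, and without it the NTg difference was -0.88 ± 0.07 with adjusted p = 7.91e-13.

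Aldh1l1, an enzyme of folate metabolism that labels astrocytes broadly, had the largest log2 difference of the 9 markers other than Gfap. Its lowest, median and highest level on day 3 was 105, 124 and 153 CPM in mSOD1 medium, 107, 121 and 149 CPM in wtSOD1 medium, and 111, 127 and 176 CPM in NTg medium. On day 1 it was 12.3, 17.4 and 19.8 CPM in mSOD1, 10.4, 12.9 and 18.7 CPM in wtSOD1, and 12.4, 12.6 and 18.1 CPM in NTg medium. The days did not overlap, and the day 3 level was 7.56-fold, 9.45-fold and 9.42-fold that of day 1 in mSOD1, wtSOD1 and NTg medium, on log2 differences of 2.92 ± 0.14, 3.24 ± 0.14 and 3.24 ± 0.14 (adjusted p = 8.53e-19, 4.11e-20 and 6.38e-20, edgeR). Among the 15204 genes tested, that difference ranked 61 from the highest in mSOD1, 48 in wtSOD1 and 49 in NTg medium. Glul, glutamine synthetase, went the other way by a small amount. It averaged 53.3 ± 2.4, 53.0 ± 3.8 and 51.9 ± 3.8 CPM on day 3 in mSOD1, wtSOD1 and NTg medium (SD, n = 6 each), against 65.2 ± 2.7, 67.5 ± 3.0 and 69.5 ± 9.5 CPM on day 1. The days did not overlap in any medium, and the log2 differences were -0.29 ± 0.06, -0.35 ± 0.06 and -0.40 ± 0.06 (adjusted p = 6.02e-05, 2.08e-06 and 2.52e-07, edgeR), the last being -0.34 ± 0.05 without NTg day 1 replicate 6. Non-coding genes overlap Aldh1l1, Aqp4, Slc1a2 and Glul in the RefSeq annotation, and as the labels do not say whether strand was used in counting, reads of the overlapping genes cannot be told apart.

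The channel genes both rose. Gja1, which encodes the gap junction protein connexin 43 and is also active in progenitors and fibroblasts, averaged 85.7 ± 7.6, 88.1 ± 4.2 and 90.3 ± 5.8 CPM on day 3 in mSOD1, wtSOD1 and NTg medium (SD, n = 6 each), against 51.1 ± 7.7, 47.1 ± 4.0 and 43.4 ± 4.7 CPM on day 1. The days did not overlap, and the log2 differences were 0.75 ± 0.08, 0.90 ± 0.08 and 1.05 ± 0.08 (adjusted p = 1.08e-10, 4.55e-13 and 1.16e-14, edgeR). Aqp4, the water channel of astrocyte endfeet, was near the limit of what these libraries can count. Its reads summed to 199, 250 and 313 over the 6 day 3 libraries of mSOD1, wtSOD1 and NTg medium, against 37, 52 and 59 reads on day 1. In CPM its lowest, median and highest level on day 3 was 1.56, 2.45 and 3.72 in mSOD1, 2.095, 2.40 and 3.94 in wtSOD1, and 1.73, 2.73 and 3.33 in NTg medium. On day 1 it was 0.172, 0.480 and 0.672 CPM in mSOD1, 0.172, 0.314 and 0.487 CPM in wtSOD1, and 0.172, 0.635 and 1.41 CPM in NTg medium. The days were apart in all 3 media, narrowly so in NTg medium. The log2 differences were 2.40 ± 0.33, 3.03 ± 0.33 and 1.91 ± 0.31 (adjusted p = 8.85e-08, 1.77e-10 and 1.01e-06, edgeR).

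Apoe, the lipid carrier that astrocytes and microglia secrete, rose in each medium, with NTg day 1 replicate 6 deciding its size in NTg medium. On day 3 its lowest, median and highest level was 4.86, 6.97 and 8.32 CPM in mSOD1, 4.83, 8.34 and 11.3 CPM in wtSOD1, and 7.25, 8.58 and 13.5 CPM in NTg medium. On day 1 it was 0.871, 1.97 and 3.42 CPM in mSOD1, 1.22, 2.73 and 2.92 CPM in wtSOD1, and 1.09, 1.83 and 22.2 CPM in NTg medium. The days overlapped only in NTg medium, through the 22.2 CPM of replicate 6 (94 reads), a level above the highest of the other 35 libraries, 13.5 CPM. The log2 difference was 1.77 ± 0.47 in mSOD1 (adjusted p = 0.00186), 1.86 ± 0.43 in wtSOD1 (0.00035) and 1.51 ± 0.44 in NTg medium (0.00391, edgeR). Without replicate 6 the NTg day 1 mean was 1.66 ± 0.42 CPM (SD, n = 5) and the difference was 2.51 ± 0.25 with adjusted p = 1.01e-10. With replicate 6 kept, the NTg call was lost in DESeq2's test (log2 1.00, adjusted p = 0.0681) and in a fit of the compared groups alone (1.56, adjusted p = 0.0643).

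Gfap was close to absent from the reads on day 1 and low on day 3. In mSOD1 medium the 6 day 3 libraries, replicates 1 to 6, held 13, 15, 11, 7, 1 and 4 Gfap reads, in wtSOD1 medium 8, 16, 10, 10, 5 and 7, and in NTg medium 51, 58, 3, 7, 5 and 4. On day 1, 12 of 18 libraries held no Gfap read, which allows a level of up to 0.146 to 0.349 CPM in them, counting error only. The other 6 held 1 and 3 reads in mSOD1 medium, 1 and 12 in wtSOD1 medium, and 1 and 5 in NTg medium, the 12 in the library of 88.9 M reads and the 5 in NTg replicate 6. Every day 3 library had at least 1 read, and day 3 exceeded day 1 in 6 of 6 same-numbered pairs in mSOD1 and wtSOD1 medium and in 5 of 6 in NTg medium. The test passed in each medium (adjusted p = 0.00364, 0.00212 and 0.000294 in mSOD1, wtSOD1 and NTg, edgeR), but with so many zeros a fitted fold depends on the prior count and none is given. In NTg medium 109 of the 128 day 3 reads came from replicates 1 and 2. Replicate 1 was a deep library of 42.2 M reads, so the levels of these replicates were 1.18 and 3.47 CPM. S100b, a calcium-binding protein of astrocytes and other glia, stayed low throughout. It averaged 0.666 ± 0.323, 0.487 ± 0.069 and 0.471 ± 0.250 CPM on day 3 in mSOD1, wtSOD1 and NTg medium (SD, n = 6 each), against 0.504 ± 0.395, 0.562 ± 0.268 and 0.733 ± 0.586 CPM on day 1. Without NTg day 1 replicate 6 the NTg day 1 mean of S100b was 0.502 ± 0.174 CPM (SD, n = 5). The days overlapped in every medium, and the log2 differences of 0.31 ± 0.44, -0.35 ± 0.42 and -0.41 ± 0.45 did not pass the test (adjusted p = 0.565, 0.469 and 0.439, edgeR), with 95% intervals that reach from -0.60 to 1.22, -1.20 to 0.49 and -1.34 to 0.51.

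Sox9, the transcription factor of glial specification that progenitors share with astrocytes, rose modestly. It averaged 41.0 ± 5.8, 43.5 ± 4.8 and 43.2 ± 7.0 CPM on day 3 in mSOD1, wtSOD1 and NTg medium (SD, n = 6 each), against 29.4 ± 6.1, 30.2 ± 6.2 and 27.9 ± 3.9 CPM on day 1. Single libraries overlapped between days in all media, and the log2 differences were 0.49 ± 0.13, 0.51 ± 0.12 and 0.63 ± 0.13 (adjusted p = 0.00144, 0.00053 and 5.51e-05, edgeR). Day 3 was higher in 5 of 6 same-numbered pairs in mSOD1 medium and in 6 of 6 in wtSOD1 and NTg medium.

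**Figure D2:**
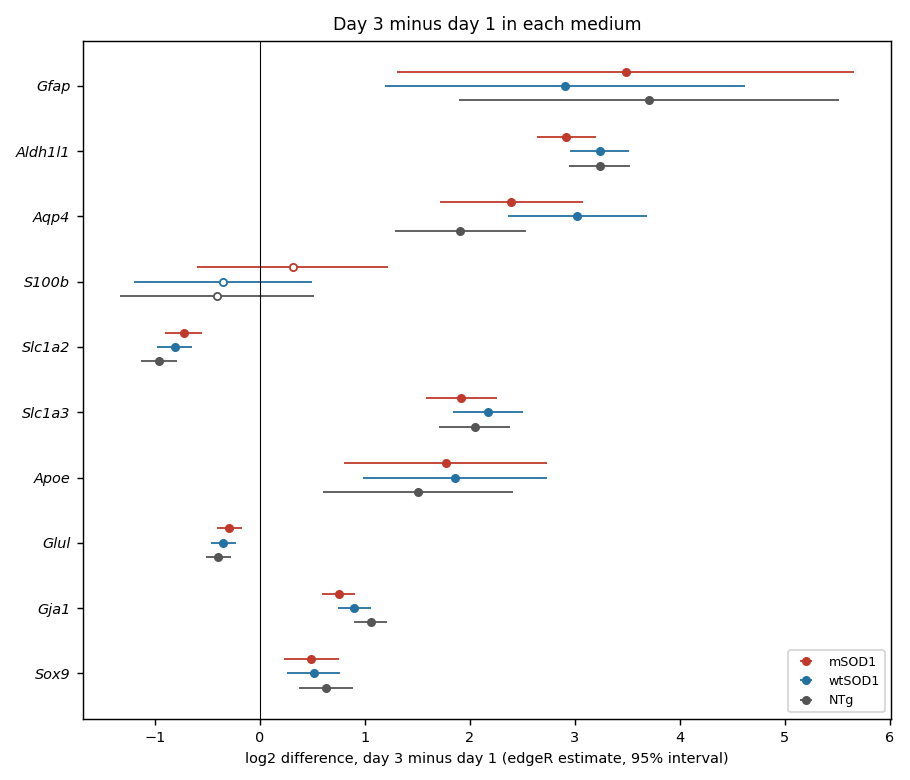
Log2 difference of each marker, day 3 minus day 1 (horizontal axis), in mSOD1, wtSOD1 and NTg medium. Points are edgeR estimates with 95% intervals, filled where the adjusted p was below 0.05. The points of 7 genes lie right of 0, those of Slc1a2 (-0.73 to -0.96) and Glul (-0.29 to -0.40) lie left, and the S100b points are open. The Gfap estimates rest on few day 1 reads and their position depends on the prior count.

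Set on a scale per length, as CPM per kilobase of exon, the order of levels on day 3 in NTg medium was Slc1a3 at 48.3 ± 9.3, Aldh1l1 at 31.9 ± 5.7, Gja1 at 26.8 ± 1.7, Glul at 18.6 ± 1.4, Sox9 at 10.4 ± 1.7, Apoe at 5.23 ± 1.38, Slc1a2 at 2.89 ± 0.20, Aqp4 at 0.446 ± 0.109, S100b at 0.317 ± 0.168 and Gfap at 0.251 ± 0.307 (SD, n = 6). The neighbours Aldh1l1 and Gja1, and the last 3, lay within 1 SD of each other. On day 1 without replicate 6 the order in NTg medium was Glul at 23.6 ± 1.0, Gja1 at 12.9 ± 1.6, Slc1a3 at 11.4 ± 2.6, Sox9 at 6.89 ± 0.98, Slc1a2 at 5.34 ± 0.56, Aldh1l1 at 3.45 ± 0.64, Apoe at 0.900 ± 0.227, S100b at 0.338 ± 0.117, Aqp4 at 0.107 ± 0.078 and Gfap at 0.00453 ± 0.01013 (SD, n = 5). Gja1 and Slc1a3 lay within 1 SD of each other there. Glul led on day 1 and lay below Slc1a3, Aldh1l1 and Gja1 on day 3, while Aldh1l1 lay below Slc1a2 and Sox9 on day 1 and above both on day 3. The canonical marker Gfap was last on both days.

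Related genes are described by counts. Of all genes tested, 30.8% rose and 30.8% fell in NTg medium. The shares were 28.4% and 28% in mSOD1 medium, and 31.1% and 30.7% in wtSOD1 medium. Of 25 tested genes of a further list of astrocyte genes, 20 rose and 1 fell on day 3 against day 1 in NTg medium (21 and 0 in mSOD1 medium, 19 and 1 in wtSOD1 medium), with a median log2 difference of 1.07 in NTg medium. There Clu, which encodes clusterin, averaged 163 ± 7.8 CPM on day 3, against 51.1 ± 4.4 CPM on day 1, and S1pr1, a lipid receptor, 48.9 ± 4.9 CPM, against 9.95 ± 2.07 CPM (SD, n = 6 each). A pair of genes of mature astrocytes was at or near 0: Gjb6, which encodes connexin 30, reached at most 0.0743 CPM in the 35 libraries other than NTg day 1 replicate 6, and Ntsr2, a neurotensin receptor, at most 0.260 CPM. Both were picked after their values were seen, from the 30 genes of that further list, of which 25 passed the low-count filter. The 30 genes summed to 1207 to 1401 CPM on day 3, against 632 to 750 CPM on day 1 without NTg replicate 6. Of 18 radial glia and progenitor genes, 13 rose and 1 fell in each medium. Their example Nes, the filament nestin, averaged 929.7 ± 50.1 CPM on day 3, against 463 ± 37.7 CPM on day 1, and Tnc, the matrix protein tenascin C, 1062 ± 119.6 CPM, against 298 ± 46.5 CPM in NTg medium. Of 20 regulators of glial fate, 8 rose and 9 fell in NTg medium. The nuclear factors Nfib and Nfix rose by 1.25 ± 0.09 and 2.02 ± 0.14 on the log2 scale, whereas Id2, an inhibitor of basic helix-loop-helix factors, fell by 1.24 on that scale (SE 0.10, adjusted p = 6.41e-14, edgeR).

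Genes of the reactive astrocyte state rose in 18 cases and fell in 5 of 30 tested in NTg medium, with Emp1, a membrane protein, at 74.0 ± 7.2 CPM on day 3, against 12.3 ± 2.2 CPM on day 1. Of 13 genes that respond to STAT3, the mediator of CNTF signals, 5 rose and 5 fell there. Of 11 further targets of the liver X receptors, lipid sensors that also act on Apoe, 9 rose and none fell in NTg medium. Of 14 further genes of glutamate transport and metabolism, 3 rose and 6 fell in that medium. As 30.8% of all genes rose and 30.8% fell there, counts near those shares are not particular to a list.

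Markers of other cells moved on the same days, and their part in the marker changes was not tested. Among all genes, 30.8% rose and 30.8% fell in NTg medium. The shares were 28.4% and 28% in mSOD1 medium, and 31.1% and 30.7% in wtSOD1 medium. Of 9 motor neuron genes all 9 fell in each medium, among them Mnx1 (HB9) at 34.6 ± 8.4 CPM on day 3, against 112 ± 18 CPM on day 1, and Chat, the acetylcholine enzyme, at 81.8 ± 13.2 CPM, against 223 ± 24 CPM in NTg medium. Of 10 general neuronal genes 10 fell in NTg medium, their summed level lying between 4498 and 8405 CPM over the 18 day 3 libraries, against 9221 to 10769.7 CPM in 17 day 1 libraries. All 9 proliferation genes rose in NTg medium, with sums of 859.5 to 1551 CPM on day 3, against 515 to 761 CPM on day 1, and Mki67, a marker of cycling cells, at 279 ± 38 CPM, against 130 ± 18 CPM. All 9 tested genes of mesenchyme rose in each medium, with sums of 1881 to 2789 CPM, against 698 to 1244 CPM. The radial glia sums were 5414 to 6411 CPM on day 3, against 2771 to 3644 CPM on day 1, and the sums of the 10 astrocyte markers were 495 to 709 CPM, against 242 to 316 CPM. Microglia genes stayed at 11.6 to 17.3 CPM in sum on day 3, against 10.6 to 21.6 CPM on day 1, with C1qa and C1qc at 0 in all 35 libraries. In NTg medium, of 7 oligodendrocyte genes 2 rose and 2 fell, of 5 neural crest genes 1 rose and 3 fell, of 4 endothelial genes none rose and 1 fell, of 3 pluripotency genes none rose and 1 fell, and of 3 tested microglia genes none rose and 1 fell. Leaving out NTg day 1 replicate 6 changed the endothelial count to none, the oligodendrocyte count to 3 that rose and 1 that fell and the neural crest count to 1 that rose and 2 that fell.

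Between media, the comparisons ask whether medium of astrocytes with mutant SOD1 changes these genes in the bulk cultures, and whether overexpressed wild-type SOD1 does the same. None of the 10 markers passed edgeR's test in any of the 6 comparisons within a day in the fit without an experiment block. Slc1a2, Slc1a3 and Gja1 passed in some comparisons with a block, as given below. Values of edgeR are from the fit without a block unless a block is named. On day 3, 2.94% of all genes were called between mSOD1 and NTg medium, 0.0987% between wtSOD1 and NTg medium and 3.37% between mSOD1 and wtSOD1 medium. On day 1 the shares were 0.421%, 0.0263% and 1.01%. An unadjusted p under 0.05 was reached by 0, 1 and 1 markers on day 3 and by 2, 1 and 2 on day 1, in that order of comparisons, and by 1, 1 and 1 on day 3 and 1, 2 and 2 on day 1 without NTg day 1 replicate 6. DESeq2 called 1 marker, Slc1a2, between mSOD1 and wtSOD1 medium on day 1 and none elsewhere. The groups overlapped for every marker in all 6 comparisons, and the share of all genes whose groups overlapped is not given. The median log2 difference of the 10 markers lay between -0.11 (mSOD1 minus NTg on day 1) and 0.01 (wtSOD1 minus NTg on day 3), where the medians over all genes lay between -0.00628 and 0.000807. The day 1 medians against NTg turned sign without NTg day 1 replicate 6, to 0.08 for mSOD1 and 0.11 for wtSOD1, where they were -0.11 and -0.02 with it.

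**Figure D3:**
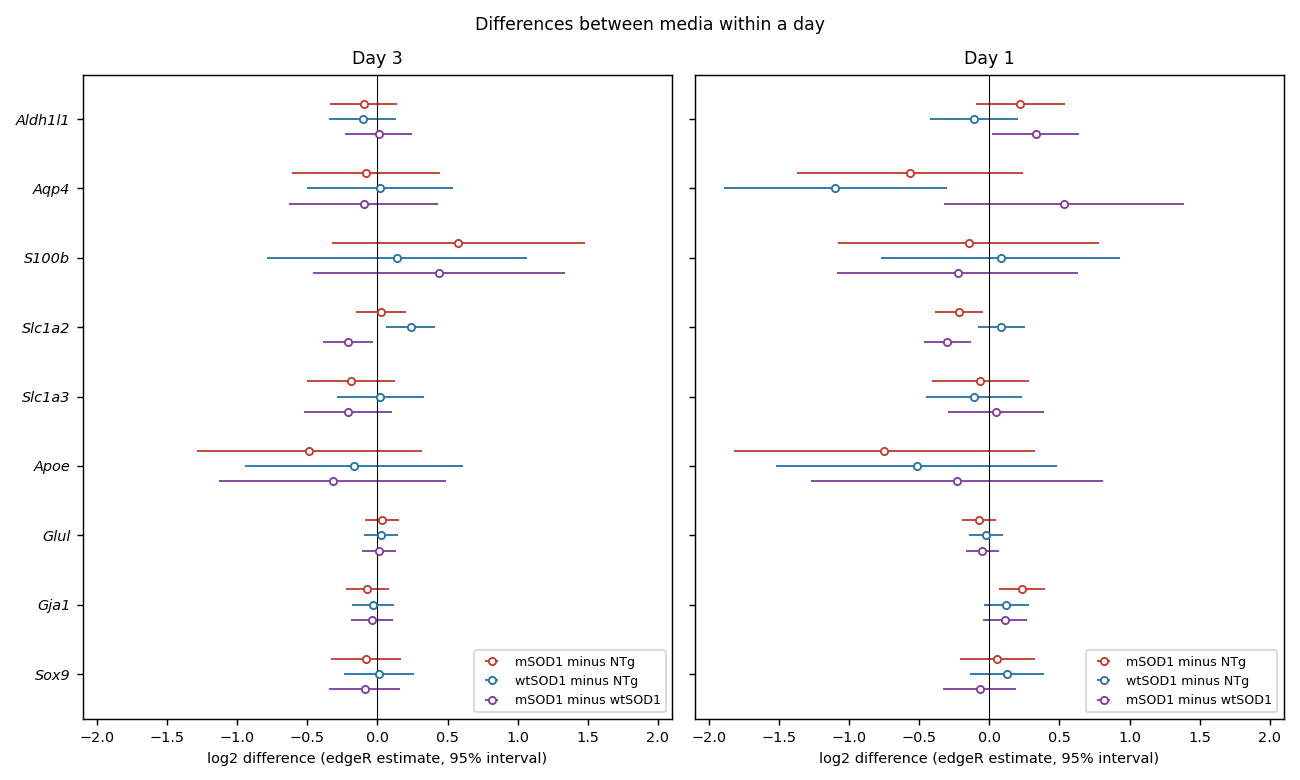
Log2 difference between media (horizontal axis) on day 3 and on day 1 for 9 markers, as edgeR estimates with 95% intervals; Gfap is left out because of its many day 1 libraries without a read. Open points did not pass the adjusted threshold, and all are open. The Slc1a2 points of mSOD1 minus wtSOD1 lie left of 0 on both days (-0.21 on day 3 and -0.30 on day 1).

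Slc1a2 came closest to the threshold. On day 1 its lowest, median and highest level of 49.0, 59.6 and 67.5 CPM in mSOD1 medium stood against 64.9, 73.3 and 79.4 CPM in wtSOD1 medium. The ranges overlapped at their ends, and mSOD1 was lower in 6 of 6 same-numbered pairs. The log2 difference, mSOD1 minus wtSOD1, was -0.30 ± 0.08 (adjusted p = 0.0704, edgeR). With the experiment as a block the adjusted p was 0.0146, and with a block within each day 0.00609. It was also below the threshold without NTg day 1 replicate 6 (0.0182), but not without that library and wtSOD1 day 1 replicate 4 (-0.27 ± 0.07, adjusted p = 0.0833). NTg day 1 replicate 6 is in neither group and enters this comparison only through the shared fit. In a fit of the compared groups alone Slc1a2 was not called. Among all genes 120 rose and 114 fell in this comparison with the experiment as a block. The counts were 261 and 316 with the block within each day, and 82 and 71 without a block. On day 3 the difference was -0.21 ± 0.09 (adjusted p = 0.168, edgeR; 0.043 with the block within each day), again lower in 6 of 6 pairs. Against NTg medium, mSOD1 differed by 0.02 ± 0.09 on day 3 (adjusted p = 0.918) and by -0.21 ± 0.08 on day 1 (adjusted p = 0.577), the last -0.13 ± 0.07 without replicate 6. wtSOD1 differed from NTg by 0.24 ± 0.09 on day 3 (adjusted p = 0.999), higher in 6 of 6 pairs, and by 0.09 ± 0.08 on day 1.

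Gja1 on day 1 was 40.6, 51.0 and 62.7 CPM (lowest, median, highest) in mSOD1 medium and 38.0, 43.6 and 51.2 CPM in NTg medium. The ranges overlapped, mSOD1 was higher in 6 of 6 pairs, and the log2 difference was 0.23 ± 0.08 (adjusted p = 0.425, edgeR; 0.0192 with the block within each day). Among all genes 131 rose and 58 fell in this comparison with that block, and 62 and 2 without it. wtSOD1 was also higher than NTg for Gja1 on day 1 in 6 of 6 pairs (0.12 ± 0.08, adjusted p = 0.98, edgeR), and mSOD1 was higher than wtSOD1 in 4 of 6. Aqp4 on day 1 gave a log2 difference of -1.10 ± 0.39 between wtSOD1 and NTg medium, from 52 and 59 reads (adjusted p = 0.593, edgeR), lower in 6 of 6 pairs, and -0.99 ± 0.39 without replicate 6. Aldh1l1 on day 1 differed by 0.33 ± 0.15 between mSOD1 and wtSOD1 medium (adjusted p = 0.409). On day 3, Slc1a3 and Apoe were lower in mSOD1 than in NTg medium in 6 of 6 pairs each, with log2 differences of -0.19 ± 0.15 and -0.48 ± 0.39 that did not pass the test (adjusted p = 0.534 and 0.533). With the block within each day Slc1a3 passed (-0.19 ± 0.05, adjusted p = 0.00528), and it also passed between mSOD1 and wtSOD1 medium on day 3 (-0.20 ± 0.05, adjusted p = 0.00332). Among all genes, 1658 rose and 1100 fell in mSOD1 against NTg medium on day 3 with that block, and 1441 and 926 against wtSOD1 medium. Without the block the 95% intervals of Slc1a3 and Apoe, -0.50 to 0.12 and -1.29 to 0.32, include 0. The Apoe interval depends on NTg day 1 replicate 6: without it the day 3 difference was -0.48 ± 0.21 with an interval of -0.90 to -0.07, and did not pass the adjusted test (adjusted p = 0.174, edgeR). For Glul on day 3 the interval of mSOD1 minus NTg was narrow, -0.09 to 0.15.

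The change over time was compared between media by interaction terms, and none of the 10 markers passed edgeR's test. Of all genes, 0.23% were called for mSOD1 against NTg, 0.0197% for wtSOD1 against NTg and 0.592% for mSOD1 against wtSOD1. An unadjusted p under 0.05 was reached by 1, 1 and 0 markers, and DESeq2 called none. Without NTg day 1 replicate 6 these counts were 2, 1 and 0. Of all 15204 genes tested, 2157, 432 and 2293 reached an unadjusted p under 0.05 with that library kept. The Apoe interaction turned sign with that library: for mSOD1 against NTg it was 0.26 ± 0.66 with it and -0.74 ± 0.36 without it (adjusted p = 0.901 and 0.364, edgeR), and for wtSOD1 against NTg 0.35 ± 0.62 with it and -0.65 ± 0.34 without it (adjusted p = 1 in both). The estimated rise of Gja1 was smaller in mSOD1 than in NTg medium by an interaction of -0.30 ± 0.11 (adjusted p = 0.208, edgeR; 0.00415 with the block within each day), and that of Aqp4 was larger in wtSOD1 than in NTg medium by 1.12 ± 0.46 (adjusted p = 1). Slc1a3 gave -0.26 ± 0.23 for mSOD1 against wtSOD1 (adjusted p = 0.634), and 0.0216 with the block within each day. Among all genes that block called 1113 positive and 567 negative interactions for mSOD1 against NTg, and 1125 and 526 for mSOD1 against wtSOD1.

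Some genes of the related lists differed between media on day 3, and none of the 10 markers passed the test, in the fit without a block. Of all genes, that fit called 2.94% between mSOD1 and NTg, 0.0987% between wtSOD1 and NTg and 3.37% between mSOD1 and wtSOD1 medium. The counts for the markers and the lists are to be read beside these shares. Of 25 further astrocyte genes, none was called between mSOD1 and NTg or between wtSOD1 and NTg medium, and 1 rose between mSOD1 and wtSOD1 medium, Ndrg2, at 20.7 ± 1.9 CPM against 15.96 ± 1.53 CPM (SD, n = 6 each; adjusted p = 0.0264, edgeR). Of 13 STAT3 response genes, 5 rose in mSOD1 against NTg medium, including Osmr, the receptor of oncostatin M, at 44.4 ± 3.9 CPM against 30.6 ± 2.7 CPM (adjusted p = 2.72e-06). Of 30 reactive astrocyte genes 2 rose there, Osmr and Serpina3n, a protease inhibitor, at 61.3 ± 13.3 CPM in mSOD1 and 30.5 ± 7.5 CPM in NTg medium (adjusted p = 0.00367). Of 11 liver X receptor targets, 3 fell in mSOD1 and 6 fell in wtSOD1 against NTg medium, among them Abcg1, a sterol exporter, at 7.63 ± 0.61 CPM in wtSOD1 and 17.0 ± 0.5 CPM in NTg medium (adjusted p = 1.95e-10). Apoe differed there by -0.17 ± 0.38 with adjusted p = 0.999. With the experiment as a block, 9 STAT3 response genes rose in mSOD1 against NTg medium, and of the further astrocyte genes 1 rose and 2 fell. Among all 15204 genes 981 rose and 529 fell there with that block, against 340 and 107 without it.

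Markers of other cells also differed between mSOD1 and the other media on day 3, and their part in the marker values was not tested. Against NTg medium, of 9 proliferation genes 2 fell in mSOD1 medium (8 with the experiment as a block), and of 18 radial glia genes none passed the test (5 fell with the block; median log2 difference -0.16). Of 10 general neuronal genes 2 rose (7 with the block), and of 9 motor neuron genes 1 rose (3 with the block). Against wtSOD1 medium, 3 proliferation genes and 1 radial glia gene fell (8 and 7 with the block), and 2 general neuronal and 2 motor neuron genes rose (7 and 4 with the block). Among all genes, 981 rose and 529 fell against NTg medium with the block, and 894 and 525 against wtSOD1 medium. Without the block the counts were 340 and 107 against NTg and 377 and 136 against wtSOD1 medium.

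NTg day 1 replicate 6 departed from its group in some markers and not in others. Apoe had 94 reads (22.2 CPM, against 1.09 to 2.14 CPM in the other 5), S100b 8 reads (1.89 CPM, against 0.286 to 0.752 CPM) and Gfap 5 reads (1.18 CPM, against 0 to 0.0922 CPM). Slc1a2 at 94.5 CPM and Glul at 88.2 CPM were above every one of the other 35 libraries, whose highest values were 79.4 and 71.5 CPM. Aldh1l1 at 12.5 CPM, Gja1 at 43.1 CPM and Sox9 at 25.0 CPM lay inside the ranges of the other 5, and Slc1a3 at 63.9 CPM was just above theirs of 39.9 to 63.4 CPM. Aqp4 at 1.41 CPM (6 reads) was also just above the other 5, at 0.172 to 1.38 CPM. The markers that were high there included both genes that fell between days, and Gfap and Apoe among those that rose. Beside these, C1qa and C1qc, complement genes of microglia, had 28 and 15 reads there and none in the other 35 libraries. Further astrocyte genes higher in this library than in any of the other 35 were Gpr37l1 (5.19 CPM, against 0 to 0.153 CPM), Hepacam (4.48 CPM, against 0.172 to 1.20 CPM), Dio2 (1.65 CPM, against 0 to 0.0684 CPM) and Gjb6 (1.41 CPM, against 0 to 0.0684 CPM), with the ranges again of the other 5. They were picked after their values were seen, from a list of 30 genes. The sum of that list was 762 CPM in this library, against 637 to 696 CPM in the other 5. The motor neuron sum was 1890.1 CPM, against 1929 to 2228 CPM. The part of these genes in the marker levels of the library was not tested.

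**Figure D4:**
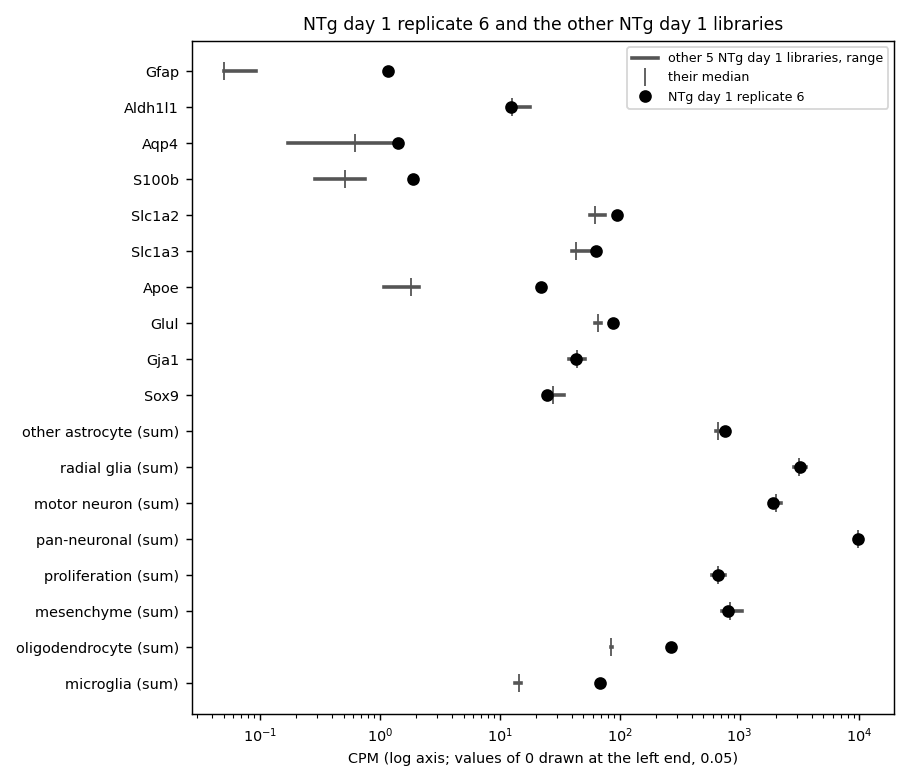
Level in CPM (log axis) of the 10 markers and of the summed genes of 8 marker lists in NTg day 1 replicate 6 (black points) and in the other 5 NTg day 1 libraries (grey lines, lowest to highest, with the median as a tick). The point of Apoe lies at 22.2 CPM, against 1.09 to 2.14 CPM, and the microglia and oligodendrocyte sums at 68.8 and 268 CPM lie to the right of their lines, while Aldh1l1, Gja1 and Sox9 lie within theirs.

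Within groups, part of the spread followed the experiment. Deviations of log2 CPM from the group mean were averaged over the groups, without NTg day 1 replicate 6. Slc1a3 was above its group mean in 6 of 6 groups in experiments 2 and 4, by a mean of 0.34 and 0.28 on the log2 scale. It was below in 6 of 6 groups in experiments 1, 3 and 5 and in 5 of 5 in experiment 6. Aldh1l1 was above in 6 of 6 groups in experiment 2 (mean 0.31), Gja1 in 6 of 6 in experiment 4 (0.10), and Apoe was below in 6 of 6 in experiment 3 (-0.42). Other genes moved with the same experiments: the radial glia sum was above its group mean in 6 of 6 groups in experiments 2 and 4 (0.13 and 0.08), the proliferation sum likewise (0.21 and 0.13), and the motor neuron sum was below in 6 of 6 groups in both (-0.21 and -0.09). Whether these genes have a part in the spread of the markers was not tested.

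**Figure D5:**
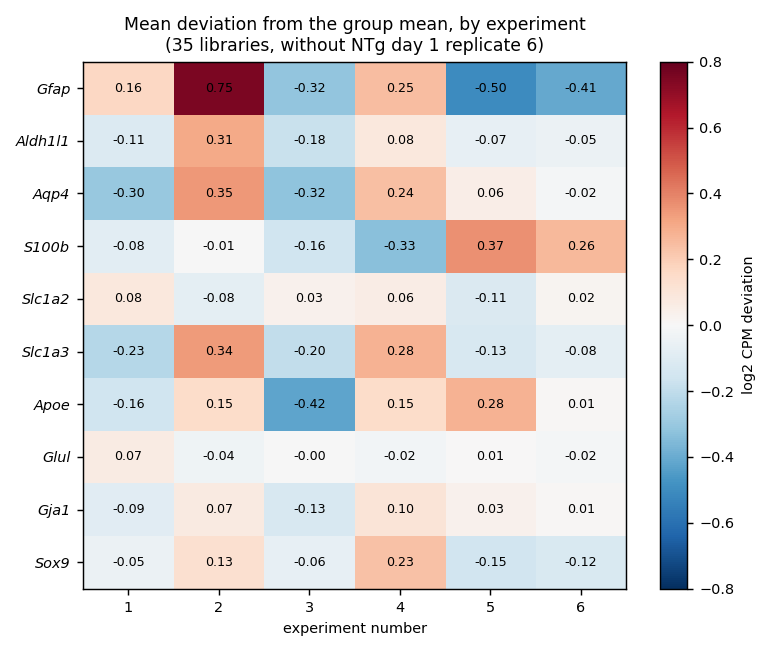
Mean deviation of log2 CPM from the group mean (colour and printed value) for each marker (rows) in experiments 1 to 6 (columns), over 35 libraries. Slc1a3 is highest in experiments 2 (0.34) and 4 (0.28) and lowest in experiment 1 (-0.23), and Glul stays near 0 in all experiments.

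Pairs of markers were compared by the correlation of these deviations over 36 libraries, with permutation within groups and adjustment over 45 pairs. After adjustment 6 pairs were positive and none negative, 5 of them with Slc1a3. Over the 35 libraries without NTg day 1 replicate 6, 8 were positive and 1 negative: Slc1a3 with Apoe was lost (r = 0.455, permutation p adjusted 0.0625), and Gfap with Aldh1l1 (0.567), Gfap with Sox9 (0.469), Apoe with Gja1 (0.546) and Slc1a2 with Apoe, the negative pair, were gained. The strongest over 36 was Slc1a3 with Sox9, at Pearson's r = 0.682 and Spearman's rho = 0.653 (permutation p adjusted 0.00135 and 0.0027), and r was 0.63 without the 2 libraries farthest from the median. Slc1a3 with Aldh1l1 followed at r = 0.647 and rho = 0.648 (permutation p adjusted 0.00315 and 0.0027; r = 0.608 without the 2 farthest). Slc1a2 and Apoe gave r = 0.239 and rho = -0.217 with all 36 libraries (permutation p adjusted 0.561 and 0.503), and r = -0.54 and rho = -0.537 over the 35 without NTg day 1 replicate 6 (permutation p adjusted 0.0216 and 0.0183). That 1 library set the sign of r. Libraries of 1 experiment share the deviations described above, so these 36 are not fully independent.

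The genes outside the 10 whose deviations over 36 libraries were most like a marker's are given by Pearson's r, as a description. For Slc1a3 they were Sulf1 (0.942), a sulfatase of the matrix, Ednrb (0.923), the endothelin receptor B, and Mki67 (0.903). For Aldh1l1 they were Fgfrl1 (0.823), an FGF receptor-like protein, Gprc5b (0.811) and Egln3 (0.809), a prolyl hydroxylase. For Sox9 they were Wnt7a (0.845), a secreted ligand, Tril (0.810) and Lfng (0.808), a modifier of Notch. For Gja1 they were Mest (0.835), Rrm2 (0.825), a subunit of ribonucleotide reductase, and Ddx18 (0.807). For Slc1a2 they were Bicd1 (0.891), a dynein adaptor, Casc4 (0.815) and Ankrd12 (0.807), and Bicd1 stayed first without NTg day 1 replicate 6 (0.865). For Glul they were the myelin gene Cnp (0.823), Ppp3r1 (0.817) and Ndfip1 (0.814), none of which was among the first 3 without replicate 6, where Scg2 (0.809), a secretory granule protein, led. For Apoe they were Sepp1 (0.876), a selenium carrier, Enpp2 (0.828) and Notch4 (0.828), and all 3 were replaced without replicate 6.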

How the data were processed

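RNA of stem cell-derived motor neurons was sequenced in 36 libraries, 6 groups of 6. Per the file headers, each deposited file lists reads per gene, which are whole-number counts. TopHat 1.3.3, DESeq and mm9 are named by the submitters' processing notes. For the counting program, annotation and strandedness nothing is given in these sources. The other column of values, VSE, was transformed by the authors to a log2 scale and served as an alternative, in limma 3.58.1. Of 21761 rows, 7 without a symbol were left out, at most 0.000923% of the reads of a library.

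Tests across genes ran in R 4.3.3 with edgeR 4.0.16 (quasi-likelihood F-tests, robust fit, TMM scaling, filterByExpr): 1 fit of 6 group means on all 36 libraries, 30 residual degrees of freedom, 12 comparisons, Benjamini-Hochberg adjustment over 15204 genes, threshold 0.05. The labels name no model. Standard errors were obtained from the F statistic. DESeq2 1.42.0 was an alternative. Logarithms of CPM used a prior count of 2. Lengths for levels per kilobase are exon unions of GENCODE vM21, which may differ from the authors' annotation. Promoters are from RefSeq, GRCm38.p6, for 8 of 10 members. The edgeR fit and the correlation code were tested on simulated data. Intervals for libraries without a read cover counting error only.

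The 10 members and the 16 other gene lists (225 genes) were chosen with earlier results of these data known. Named genes are all 10 members, at most 4 of each list per comparison by lowest p among those called, a few set markers, and the 3 genes most like each member; genes named for NTg day 1 replicate 6, and Gjb6 and Ntsr2, were chosen after their values were seen. The labels' experiment number pairs libraries: same-numbered libraries of a day deviated together, at a mean correlation of 0.242 on day 3 and 0.132 on day 1, whereas differently numbered ones gave -0.0483 and -0.0268. Of 18 same-numbered pairs, 16 exceeded 0.1 on day 3 and 12 did on day 1. No pair of libraries within a group agreed within sampling noise (lowest chi-square per degree of freedom 2.31 of 90 pairs). Alternatives were other size factors, DESeq2, no filter, experiment blocks, fewer groups, libraries left out and the second column.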

Additional observations from a re-analysis of the deposited data

Results flagged for a closer look

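Each member was examined in each group for a library far from the other 5, by the gap to its nearest neighbour relative to the whole range. The cut-off flags about 1 in 20 groups of normally distributed values. Levels resting on few reads, as for Gfap and S100b, are not of that kind, so the rate does not hold for them. Such a library was found in 10 of 60 groups. NTg day 1 replicate 6 accounts for 4 of them: Gfap at 1.18 CPM, S100b at 1.89 CPM, Apoe at 22.2 CPM and Glul at 88.2 CPM, all higher than the rest. NTg day 3 replicate 2 accounts for 2, Gfap at 3.47 CPM (58 reads) and Slc1a3 at 293 CPM, both the highest of all 36 libraries. The other 4 are Gfap in mSOD1 day 1 replicate 2 at 0.244 CPM, which is 3 reads, S100b in NTg day 3 replicate 5 at 0.955 CPM, Glul in mSOD1 day 1 replicate 5 at 70.5 CPM and Sox9 in wtSOD1 day 1 replicate 4, the deepest library, at 41.9 CPM.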

How the results depend on the processing

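Counts of 9 called members between days were 7 to 9 under every alternative, 8 to 9 when 1 experiment was left out at a time; Gfap fell under the low-count filter without experiment 1 or 2 and in fits of the compared groups alone, by fewer libraries, and was not tested there. With the experiment as a replicate block, 1 member was called between mSOD1 and wtSOD1 on day 1 (Slc1a2, -0.30, adjusted p = 0.0146), and no other member's call changed. The same count was 0 with other size factors, without the low-count filter, in limma and in a fit of the compared groups alone. It was 1 with DESeq2's test (-0.30, 0.0467) and 0 to 1 over single experiments left out. It was 0 without experiment 1, 2, 3, 4 or 5, 1 without experiment 6 (-0.34, 0.0277) and 1 without NTg day 1 replicate 6 (0.0182). With the block and without that library, chosen after seeing the data, it was 1 (0.00224), and on day 3 it was 2 (Slc1a2 0.0255, Slc1a3 0.0412). With a replicate block within each day, counts were 1 for mSOD1 against NTg on day 1 (Gja1, 0.24, 0.0192), 1 on day 3 (Slc1a3, -0.19, 0.00528), 1 for mSOD1 against wtSOD1 on day 1 (Slc1a2, 0.00609), 2 on day 3 (Slc1a2 0.043, Slc1a3 0.00332), 1 for the interaction of mSOD1 against NTg (Gja1, -0.31, 0.00415) and 1 for that of mSOD1 against wtSOD1 (Slc1a3, -0.26, 0.0216). More of all genes were called with that block too. For mSOD1 against NTg, 131 rose and 58 fell on day 1, and 1658 and 1100 on day 3. For mSOD1 against wtSOD1, 261 rose and 316 fell on day 1, and 1441 and 926 on day 3. The interactions gave 1113 and 567 for mSOD1 against NTg, and 1125 and 526 for mSOD1 against wtSOD1. The cause was not tested, beyond that a block removes the spread between experiments from the error. One correlation reversed, Slc1a2 with Apoe, at r = -0.54 without NTg day 1 replicate 6. With all 36 libraries in the fit no member was under the low-count filter, so the exact permutation test meant for such members was not run. Depth limits Gfap, S100b and Aqp4, each read fewer than 20 times in most day 1 libraries.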
